A study of Mus musculus with 6 samples.

Results

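Integrins are the receptors through which epithelial cells hold on to the matrix. Each receptor pairs one alpha chain with one beta chain, and the pair decides which ligand is bound. On the cytoplasmic side, talin and kindlin bind the beta tail and switch the receptor on, while ILK, parvin, vinculin, paxillin, zyxin, alpha-actinin and filamin tie it to actin in focal adhesions. In the alveolus, AT2 cells sit on a laminin-rich basement membrane, and pairs that contain the alpha-v chain can release active TGFβ from its latent form.

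The genes described here are 33 genes chosen by symbol, out of 24421 in the count table. They are 12 alpha chains and 7 beta chains outside the leukocyte and platelet types, 13 focal adhesion linkers and the tetraspanin *Cd151*, which associates with laminin-binding integrins. All 33 were found in the table, and all 33 passed the expression filter.

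RNA came from sorted, lineage-labeled AT2 cells of adult mice, with 3 libraries in each of 2 groups. AT2CTRL mice had the genotype Sftpc-CreERT2/+ with R26-tdTomato/+. AT2CAB mice had the same Cre allele with R26-tdTomato on one Rosa26 copy and R26-caBmpr1a, a constitutively active BMPR1a, on the other. The labels give an age of 16 weeks for AT2CTRL replicate 2 and AT2CAB replicate 1, and of 12 weeks for the remaining 4 libraries. In both groups Cre is made by cells that express *Sftpc* and acts after tamoxifen, which the methods describe for both genotypes in general. The label and the receptor are separate alleles, so a labeled cell need not have recombined the receptor allele, and the AT2CAB libraries may hold both kinds of cell. The interval between tamoxifen and sorting for these libraries is not given in the sources used here. Nothing in the labels shows whether each library is from 1 mouse or from pooled mice, so p-values measure the spread between these libraries.

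The libraries held between 21554249 and 28440227 counts. The 13 AT2 markers summed to between 154900 and 172100 CPM (a count divided by its library's TMM-adjusted total) in AT2CTRL and between 112500 and 136700 CPM in AT2CAB, with *Sftpc* at 42700 CPM or more in every library. AT2CTRL replicate 1 and AT2CAB replicate 3 had 176 and 146.3 CPM on 4 Y-linked genes, and the other 4 libraries had 0. These libraries are called the pair with Y-linked reads, and the group differences were also fitted within the other 4 libraries. Summed markers of other cell types were also compared. The 14 mesenchymal markers ranged from 199.9 to 270.7 CPM in AT2CTRL and from 310.0 to 415 CPM in AT2CAB, and 14 of 14 had a log2 fold change above 0. The sums of the 12 endothelial markers overlapped, with 353 to 738 and 648 to 1060 CPM, and 12 of 12 markers were above 0. The 15 leukocyte markers ranged from 2001 to 2709 and from 317 to 1407 CPM, mostly *Lyz1*. Without *Lyz1*, left out after its values were seen, their sums overlapped, with 71.0 to 83.3 and 62.1 to 164.4 CPM. Of these 14 markers 13 were above 0. The sums of the 14 AT1 markers overlapped between the groups, with 3578 to 4597 and 3884 to 4469 CPM. Of these 14, 11 had a log2 fold change above 0 and 3 below, with a median of 0.33. No marker of these 4 lists was at 0 in any library. In sorted bulk RNA, fewer cells of a type and less RNA per cell cannot be told apart.

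AT2 cells of both genotypes carried mainly the transcripts of *Itgb1*, *Itga9*, *Itga7* and *Itga3* among the integrin chains. Levels are compared between genes as RPKM, which is CPM divided by the exon length in kilobases. *Itgb1*, the shared partner of most alpha chains in epithelia, stood at 117.9 ± 14.9 RPKM in AT2CTRL and 112.9 ± 9.997 RPKM in AT2CAB (SD, n = 3). It made up 90.1% ± 0.857 of the summed RPKM of the 7 beta chains in AT2CTRL and 87.2% ± 0.213 in AT2CAB. *Itgb1* was the main beta chain in all 6 libraries. Its shares were 89.2%, 90.02% and 90.9% in AT2CTRL and 87.0%, 87.2% and 87.4% in AT2CAB and did not overlap. The level of *Itgb1* itself did overlap between the groups (log2 fold change -0.062). The shares of *Itgb5*, *Itgb7* and *Itgb3* were higher in every AT2CAB library than in any AT2CTRL library. Those of *Itgb4*, *Itgb6* and *Itgb8* overlapped. Shares of the same pool depend on each other, so a lower *Itgb1* share goes with higher shares of other chains. The levels of *Itgb3* and *Itgb5* overlapped between the groups, while that of *Itgb7* did not.

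*Itga9* encodes the chain of alpha-9 beta-1, a receptor for tenascin-C and osteopontin among others. It was the most abundant alpha chain in all 6 libraries, with 82.6 ± 20.1 RPKM in AT2CTRL and 80.1 ± 4.38 RPKM in AT2CAB. The gene spans 118606709 to 118901003 of chromosome 9 (mm10). Its share of the summed RPKM of the 12 alpha chains was 40.9% ± 3.88 in AT2CTRL and 44.4% ± 6.32 in AT2CAB, a difference within the spread between libraries. *Itga7*, the chain of a laminin receptor best known from muscle, followed with 44.6 ± 6.53 RPKM in AT2CTRL. *Itga3*, whose product pairs with beta-1 as the laminin-332 and laminin-511 receptor of epithelia, came next with 34.3 ± 5.42 RPKM. *Itga7* was above *Itga3* in the 3 AT2CTRL libraries and in AT2CAB replicate 1, and below it in AT2CAB replicates 2 and 3. In AT2CTRL the levels of *Itga7* and *Itga3* were each clear of the next chain, *Itga6*, at 11.3 ± 3.21 RPKM, whereas *Itga6* and *Itgav* (10.9 ± 2.12 RPKM) did not differ beyond their spread.

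The remaining chains were lower. *Itga5*, the fibronectin receptor chain, had 6.22 ± 0.0938 RPKM in AT2CTRL, and the collagen and nephronectin receptor chains *Itga1* and *Itga8* had 4.08 ± 2.09 and 3.92 ± 1.81 RPKM. *Itga2*, *Itga4*, *Itga10* and *Itga11* all had means under 1 RPKM in AT2CTRL. Among the partners of alpha-v other than beta-1, *Itgb5* led with 6.46 ± 1.12 RPKM, ahead of *Itgb6* with 2.81 ± 0.366 and *Itgb3* with 1.15 ± 0.282 RPKM. *Itgb8* was at 0.190 ± 0.0965 RPKM, from 7 to 20 counts per AT2CTRL library and from 5 to 14 per AT2CAB library. *Itgb4*, which joins alpha-6 in hemidesmosomes, was at 1.02 ± 0.715 RPKM, so that the *Itgb4* transcript was far below that of *Itga6* in AT2CTRL.

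**Figure D1:**
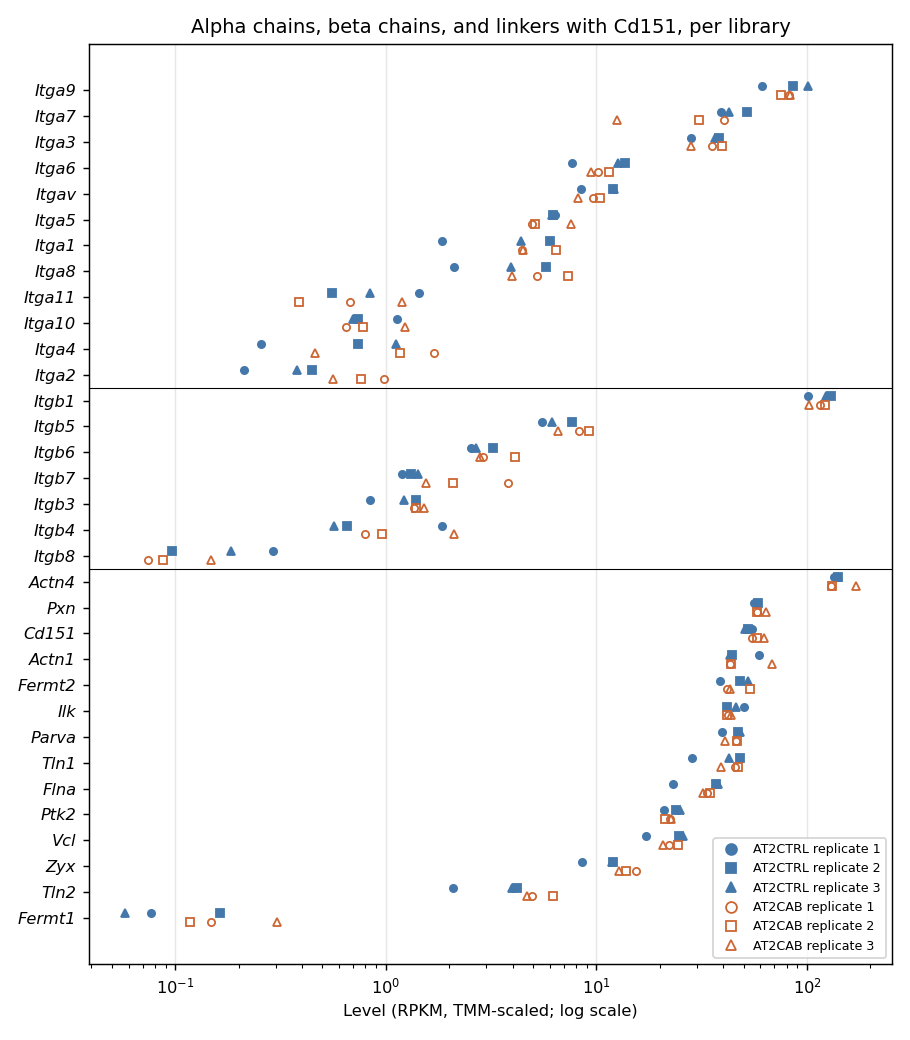
Level of each of the 33 genes in each library, in RPKM on a log axis, with alpha chains at the top, beta chains in the middle and linkers with Cd151 at the bottom. Filled symbols are AT2CTRL and open symbols AT2CAB, and the symbols of both groups lie close together for most genes above 10 RPKM.

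**Figure D2:**
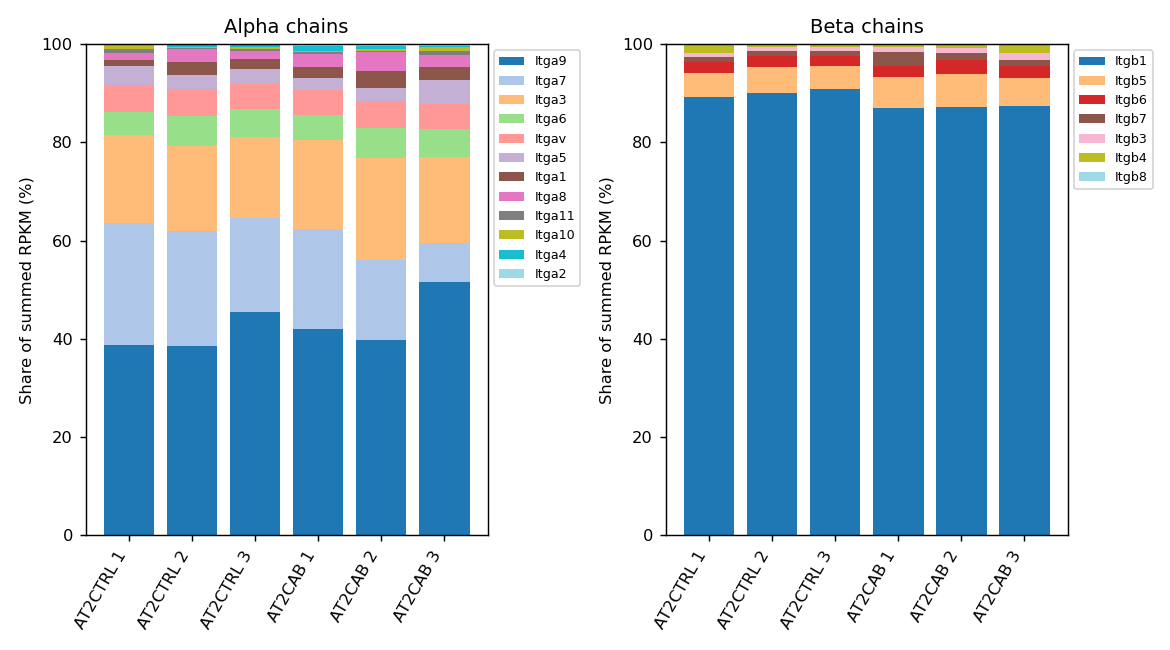
Share of each alpha chain in the summed RPKM of the 12 alpha chains, and of each beta chain in that of the 7 beta chains, in percent, with 1 bar per library. Itga9 is the largest alpha share and Itgb1 the largest beta share in all 6 libraries, and the Itga7 share is smallest in AT2CAB replicate 3 at 7.79%.

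The linkers were more abundant than most chains. *Actn4*, a non-muscle alpha-actinin that crosslinks actin, was at 138.1 ± 3.70 RPKM in AT2CTRL. Of its exon bases 8.71% overlap *Capn12*, where reads were left out of the counts. *Pxn* (paxillin, a scaffold) had 57.3 ± 1.34 RPKM, *Actn1* 48.9 ± 8.97, *Fermt2* 46.2 ± 7.09, *Ilk* 46.0 ± 4.37, *Parva* 44.6 ± 4.70 and *Tln1* 39.7 ± 10.2 RPKM. *Cd151* was in the same range with 52.6 ± 1.90 RPKM. Within each pair of paralogs one gene prevailed. *Tln1* made up 92.2% ± 0.862 of the talin RPKM and *Fermt2* 99.8% ± 0.115 of the summed RPKM of *Fermt1* and *Fermt2* in AT2CTRL. *Fermt1*, the kindlin of many epithelia, was near the detection floor, with 8 to 20 counts per AT2CTRL library and 16 to 49 per AT2CAB library. In these counts the talin and kindlin of AT2 cells were thus mainly *Tln1* and *Fermt2*.

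Promoter letters were read for the genes with a RefSeq entry on GRCm38.p6, since the mutant allele acts through BMP-responsive transcription and the linkers are a textbook group of SRF targets. An entry was found for 25 of the 33 genes, and the 250 bases before each start were searched. The GC-rich letters GGCGCC, known as part of SMAD1/5 elements and equal to their own reverse complement, were in 4 of 25 (16%), against 17.9% of the 12502 tested genes with an entry. These were *Itgb1*, *Actn4*, *Vcl* and *Ilk*. GGAATG or its reverse complement CATTCC, the letters of TEAD sites, were in 5 of 25 (20%), against 13.3%. The SRF motif known as the CArG box was in 3 of 25 (12%), against 1.45%. No test was made of these shares. These matches are a description of letters, not of bound sites. The windows that hold the CArG box, and the *Itgb1* window that holds GGCGCC, are shown because they belong to genes whose levels are given below. They are printed on the strand of the gene, with the motif in capitals.
Vcl at chr14:20929148-20929205, + strand: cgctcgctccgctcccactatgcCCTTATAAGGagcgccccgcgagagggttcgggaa
Fermt2 at chr14:45530235-45530294, - strand: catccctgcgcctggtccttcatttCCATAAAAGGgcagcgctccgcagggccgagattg
Itgb6 at chr2:60673709-60673768, - strand: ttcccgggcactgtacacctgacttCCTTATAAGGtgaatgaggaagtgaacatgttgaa
Itgb1 at chr8:128685486-128685541, + strand: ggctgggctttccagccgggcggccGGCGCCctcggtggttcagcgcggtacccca
The *Itgb6* start used by RefSeq lies inside the gene as the count table draws it. The motif begins 227, 204 and 50 bases before the start of *Vcl*, *Fermt2* and *Itgb6*, and 143 bases before that of *Itgb1*.

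Activation of BMPR1a was then compared with control. With edgeR's quasi-likelihood test no integrin chain or linker reached an adjusted p under 0.05 (0 of 33, smallest adjusted p = 0.443). Of the 16723 genes tested, 40 (0.239%) were called higher and 2 (0.012%) lower, and 38 (0.227%) were called higher by more than 2-fold. At an unadjusted p under 0.05, 4 members were higher and 0 lower in edgeR's test, where the whole table had 4.62% higher and 5.05% lower, or 9.67% in either direction. DESeq2 called 0 of the 31 members to which it gave an adjusted p (all but *Itgb8* and *Fermt1*), against 2.09% of all genes with one. At an unadjusted p under 0.05 it had 3 of 33 members higher and 0 lower, against 4.44% and 3.2% of all genes. The median log2 fold change was 0.060 over the 33 members and -0.0096 over all genes tested. For 5 members all 3 AT2CAB values lay above all 3 AT2CTRL values (7% of all genes), and for 0 members all lay below (10.1% of all genes). The log2 fold change was above 0 for 19 of 33 members, against 48.8% of all genes.

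The intervals show how large a difference these libraries could have missed. The 95% interval of the log2 fold change lay within 2-fold in either direction for 22 of 33 members, and for 60.1% of all genes tested. Among the 18 members at 10 RPKM or more in AT2CTRL this held for 17, all but *Itga7*. Their log2 fold changes ran from -0.21 to 0.38 without *Itga7*, and the outermost bounds of their intervals were -0.61 and 0.74. Among the 15 members under 10 RPKM it held for 5, and the bounds reached -2.37 for *Itgb8* and 2.42 for *Fermt1*. A 2-fold difference thus lay outside the interval for those 17 abundant members and for the 5 lower ones, *Itga5*, *Itga10*, *Itgb3*, *Itgb5* and *Itgb6*. For the other 11 members, *Itga7* among them, the interval reached 2-fold in at least 1 direction.

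**Figure D3:**
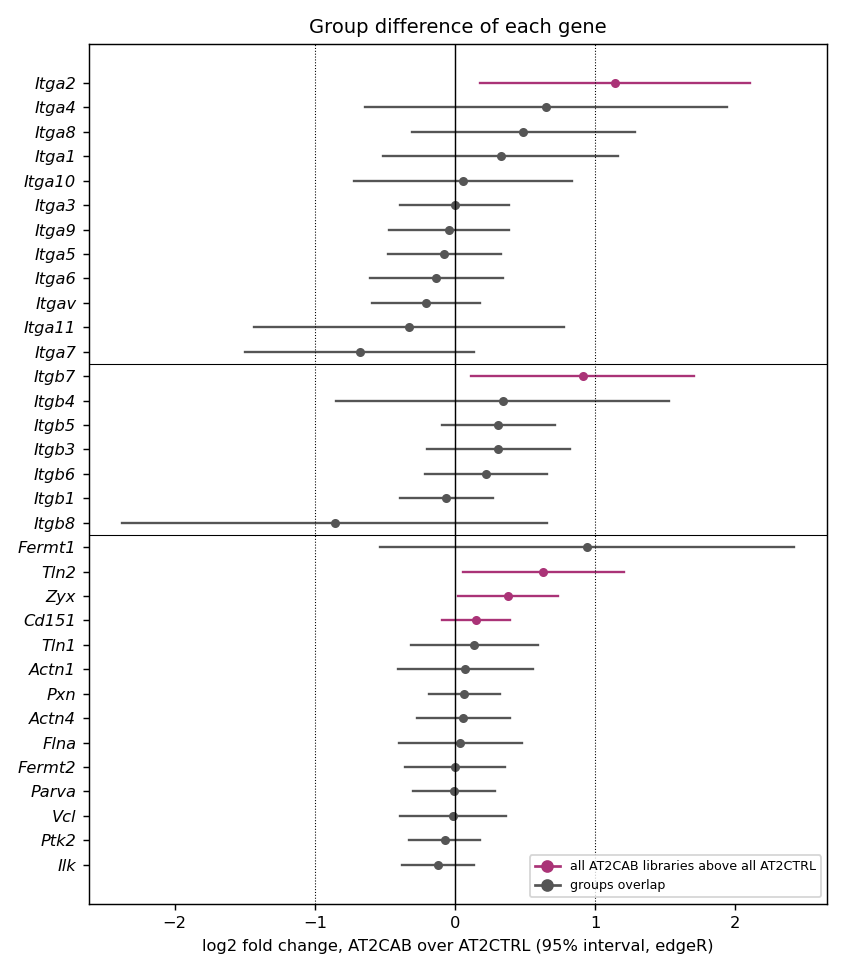
log2 fold change of AT2CAB over AT2CTRL for each of the 33 genes, with its 95% interval from edgeR's quasi-likelihood test. Dotted lines mark 2-fold, the 5 genes in purple are those whose AT2CAB values all lay above the AT2CTRL values, and the widest intervals are those of Fermt1 and Itgb8.

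Of the alpha chains, *Itga2* had the largest log2 fold change. Its product is the collagen-binding chain of alpha-2 beta-1, and the gene spans 114835912 to 114932041 of chromosome 13 (mm10). *Itga2* had 0.897, 1.89 and 1.60 CPM in AT2CTRL replicates 1, 2 and 3, and 4.13, 3.22 and 2.38 CPM in AT2CAB replicates 1, 2 and 3. The groups did not overlap, but each value rests on between 20 and 90 counts. AT2CAB exceeded AT2CTRL by 1.14 on the log2 scale (standard error 0.42, 95% interval 0.18 to 2.11), with an edgeR adjusted p of 0.443. The difference was 1.11 in the 4 libraries without Y-linked reads and 1.31 as the log2 ratio within the pair. Since the groups did not overlap, *Itga2* was bound to be higher in AT2CAB in both sets. Its level stayed under 1 RPKM in every library.

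*Itga7* differed the most downward among the abundant chains, and its AT2CAB values were spread widely. It spans 128933813 to 128958284 of chromosome 10 (mm10). Its values were 157.2, 208 and 172 CPM in AT2CTRL and 161.7, 123.5 and 50.3 CPM in AT2CAB. The highest AT2CAB value was above the lowest AT2CTRL value, and AT2CAB replicate 3 stood far below the other 5 libraries. The fitted log2 fold change of *Itga7* was -0.68, with a standard error of 0.36 and an edgeR adjusted p of 0.593. Without AT2CAB replicate 3 it was -0.29, in the 4 libraries without Y-linked reads -0.38, and within the pair the log2 ratio was -1.64.

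The 2 other abundant laminin and tenascin receptor chains were near 0. *Itga9* had 434, 607 and 717 CPM in AT2CTRL and 584, 532 and 588 CPM in AT2CAB. All AT2CAB values of *Itga9* lay within the range of the control libraries. The log2 fold change was -0.044 (95% interval -0.47 to 0.39) for *Itga9* and -0.0021 (95% interval -0.39 to 0.39) for *Itga3*. *Itga6* (-0.13) and *Itgav* (-0.21), had overlapping groups over all 6 libraries. Within the 4 libraries without Y-linked reads both AT2CAB values lay below both control values, with -0.25 (standard error 0.098) for *Itga6* and -0.24 (standard error 0.085) for *Itgav*. *Itga5* had 27.6, 27.1 and 26.8 CPM in AT2CTRL and 21.7, 22.3 and 33.2 CPM in AT2CAB. For *Itga5* the control libraries were within 1 CPM of each other, while AT2CAB replicates 1 and 2 were below them and replicate 3 above.

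*Itga8* and *Itga1* had overlapping groups and did not pass the test. *Itga8*, the nephronectin receptor chain of myofibroblasts, had 12.2, 33.2 and 22.6 CPM in AT2CTRL and 30.3, 42.2 and 23.0 CPM in AT2CAB (log2 fold change 0.49, 95% interval -0.31 to 1.28). *Itga1*, a collagen receptor chain of stromal and endothelial cells, had 11.1, 35.8 and 26.4 CPM in AT2CTRL and 26.4, 38.6 and 26.9 CPM in AT2CAB (log2 fold change 0.32). AT2CTRL replicate 1 was the lowest library for both genes and AT2CAB replicate 2 the highest. The summed mesenchymal markers were also lowest in AT2CTRL replicate 1 (199.9 CPM) and highest in AT2CAB replicate 2 (415 CPM), as were the endothelial markers (353 and 1060 CPM). The part of those cells in the values of *Itga8* and *Itga1* was not tested.

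*Itga4* and *Itgb7* encode a pair that lymphocytes use for homing. *Itga4* had 2.51, 7.24 and 10.97 CPM in AT2CTRL and 16.7, 11.5 and 4.52 CPM in AT2CAB, so that the groups overlapped (log2 fold change 0.65, 95% interval -0.64 to 1.94). *Itgb7*, a gene of chromosome 15 (mm10, 102215995 to 102231935), had 3.18, 3.52 and 3.81 CPM in AT2CTRL and 10.1, 5.55 and 4.17 CPM in AT2CAB. The groups of *Itgb7* did not overlap, and AT2CAB replicate 1 was well above the other 5 libraries. Over all 6 libraries the *Itgb7* log2 fold change was 0.91 (standard error 0.35, edgeR adjusted p = 0.461), and 0.50 without AT2CAB replicate 1. This value was 1.12 in the 4 libraries without Y-linked reads and 0.38 within the pair. Without overlap of its groups, *Itgb7* was bound to be higher in AT2CAB in both sets.

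The leukocyte gene *Ptprc* (CD45), a marker of all white blood cells, had the same order of AT2CAB libraries. It had 6.14, 11.7 and 16.3 CPM in AT2CTRL and 32.0, 17.5 and 7.36 CPM in AT2CAB. Of the 15 leukocyte markers, *Adgre1*, *Marco*, *Cd3e* and *Cd79a* had another order of AT2CAB libraries, and the rest had this order. *Cd3e* was highest in AT2CAB replicate 3, with 3.30, 2.37 and 3.55 CPM. The log2 fold change was above 0 for 13 of the 15, and below 0 for *Cd68* (-0.12) and *Lyz1* (-1.33). The 9 leukocyte and platelet integrin genes summed to 38.6, 36.4 and 44.2 CPM in AT2CTRL and 94.2, 55.7 and 44.0 CPM in AT2CAB. *Ptprc* and this sum were highest in AT2CAB replicate 1, the library in which *Itga4* and *Itgb7* were also highest. The part of leukocyte RNA in these values was not tested.

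The beta chains that pair with alpha-v did not pass the test. *Itgb5*, a vitronectin receptor chain, had 18.1, 25.3 and 20.2 CPM in AT2CTRL and 27.2, 30.2 and 21.4 CPM in AT2CAB (log2 fold change 0.31, 95% interval -0.096 to 0.71). *Itgb6*, the epithelial chain of a receptor that activates latent TGFβ, had 12.9, 16.5 and 13.7 CPM in AT2CTRL and 14.8, 21.03 and 14.3 CPM in AT2CAB (log2 fold change 0.22, 95% interval -0.21 to 0.65). In both genes AT2CAB replicate 2 was the highest library and the groups overlapped. *Tgfb1*, a ligand handled by alpha-v beta-6, had 44.7, 44.5 and 43.6 CPM in AT2CTRL and 83.9, 90.04 and 109.6 CPM in AT2CAB. It rose by 1.10 on the log2 scale (standard error 0.13, edgeR adjusted p = 0.0172) and was the only gene to pass among 4 further lists of adhesion genes and ligands. Its edgeR adjusted p was 0.0739, 0.13 and 0.11 without AT2CTRL replicates 1, 2 and 3. Without AT2CAB replicate 2 it was 0.0778, so the call was lost in these fits. In the same order, they called 0.0758%, 0.0342%, 0.0399% and 0.0458% of all genes, against 0.251% with all libraries. The *Tgfb1* log2 fold change stayed between 1.01 and 1.20 with any 1 library left out. Whether this difference exceeds those of *Itgav*, *Itgb5* and *Itgb6* was not tested. *Itgb8*, the other chain that activates latent TGFβ, had a log2 fold change of -0.86 at 5 to 20 counts per library (95% interval -2.37 to 0.66), and it did not pass the filter within the 4 libraries.

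*Itgb1* itself had 424, 543 and 515 CPM in AT2CTRL and 483, 510.0 and 428 CPM in AT2CAB. The groups overlapped, with AT2CTRL replicate 1 lowest. Its log2 fold change of -0.062 had a 95% interval from -0.39 to 0.27, the narrowest of the 19 receptor chains. The other beta chains, *Itgb3* (0.31) and *Itgb4* (0.34), had overlapping groups, and *Itgb4* was highest in the pair with Y-linked reads, with 11.4 CPM in AT2CTRL replicate 1 and 13.0 CPM in AT2CAB replicate 3 against 5.90 CPM or less in the other 4 libraries.

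Among the linkers, *Tln2* and *Zyx* had AT2CAB values above all control values. *Tln2*, the second talin, spans 67217085 to 67559703 of chromosome 9 (mm10). Its libraries had 25.2, 50.7 and 48.0 CPM in AT2CTRL and 59.6, 75.4 and 56.9 CPM in AT2CAB. No control library reached the lowest AT2CAB library. On the log2 scale the *Tln2* difference was 0.63 (standard error 0.25, 95% interval 0.056 to 1.20, edgeR adjusted p = 0.476). It came to 0.49 in the 4 libraries without Y-linked reads, 1.17 within the pair and 0.37 without AT2CTRL replicate 1. Because its groups did not overlap, *Tln2* was bound to be higher in AT2CAB in each of these. The *Tln2* share of the talin RPKM was 6.82%, 7.99% and 8.50% in AT2CTRL and 9.79%, 11.7% and 10.8% in AT2CAB, so that these shares did not overlap either. With a covariate for Y-linked reads, *Tln2* came nearest to a call of all members under any setting run (log2 fold change 0.69, adjusted p = 0.0589 from edgeR's test), in a fit that called 2.53% of all genes.

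*Zyx* encodes zyxin, a LIM protein recruited to adhesions and stress fibers under tension. The gene spans 42349828 to 42360213 of chromosome 6 (mm10), and 5.94% of its exon bases overlap *Epha1*, where reads were left out of the counts. It had 33.9, 47.8 and 47.4 CPM in AT2CTRL and 61.6, 55.1 and 51.1 CPM in AT2CAB. The lowest AT2CAB library was above the highest control library by a small margin. For *Zyx* the log2 fold change was 0.38 (standard error 0.16, 95% interval 0.019 to 0.74, edgeR adjusted p = 0.494), with 0.33 in the 4 libraries and 0.59 within the pair. Its direction in both sets was fixed, as its groups did not overlap. *Cd151* was also separate between the groups, with 110.1, 105 and 103 CPM in AT2CTRL and 110.7, 116.2 and 125.6 CPM in AT2CAB. Its log2 fold change was only 0.15 (95% interval -0.092 to 0.39, edgeR adjusted p = 0.676), and the nearest libraries of the 2 groups differed by under 1 CPM.

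**Figure D4:**
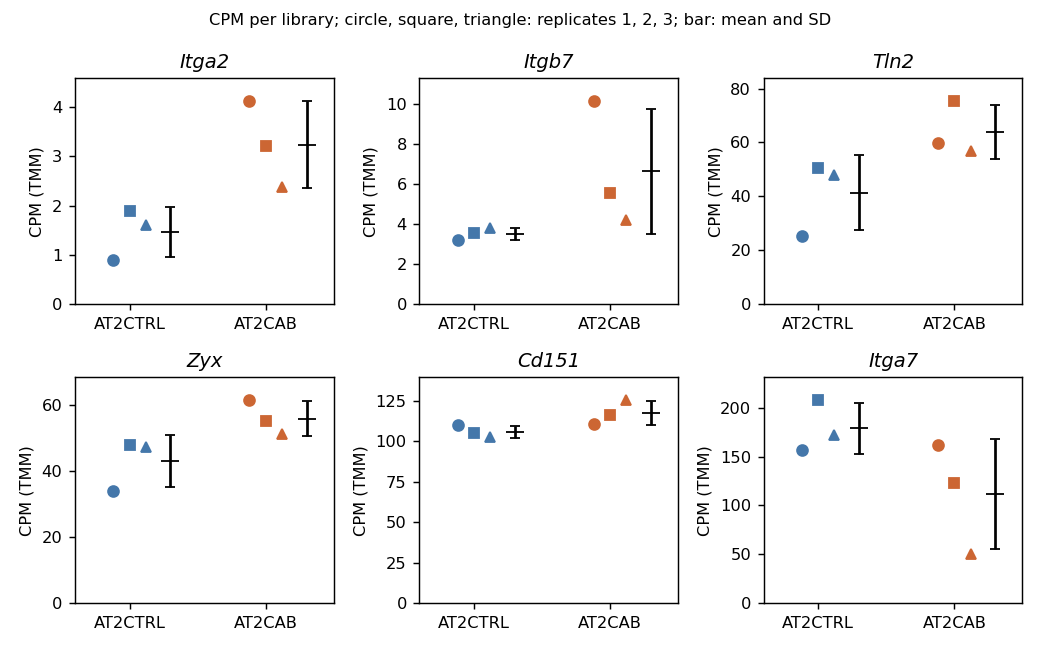
CPM in each library for the 5 genes whose groups did not overlap and for Itga7, with the mean and SD of each group as a bar to the right of the points and axes that start at 0. Itgb7 is highest in AT2CAB replicate 1 (10.1 CPM) and Itga7 lowest in AT2CAB replicate 3 (50.3 CPM).

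The core of the adhesion machinery differed little. *Fermt2*, kindlin-2, had 124.7, 155.5 and 169.7 CPM in AT2CTRL and 135.5, 174 and 140.0 CPM in AT2CAB (log2 fold change -0.0009, 95% interval -0.36 to 0.36). *Vcl*, vinculin, had 89.8, 129.5 and 134 CPM in AT2CTRL and 115.6, 127 and 108 CPM in AT2CAB (log2 fold change -0.013, 95% interval -0.39 to 0.37). Both genes, whose promoter windows hold the CArG box shown above, were lowest in AT2CTRL replicate 1 and overlapped between the groups. *Parva* (-0.0069), *Ptk2* (-0.075), which encodes focal adhesion kinase, *Pxn* (0.067), *Flna* (0.038) and *Tln1* (0.14) had intervals within 2-fold. *Ilk*, of whose exon bases 8.99% overlap other genes, was at -0.12 (95% interval -0.38 to 0.13). *Actn4* and *Actn1* were both highest in AT2CAB replicate 3, with 650.0 and 253 CPM, and had log2 fold changes of 0.060 and 0.074.

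AT2CTRL replicate 1 was the lowest of the 6 libraries for 20 of the 33 members, whereas it was the lowest for 19.3% of all genes tested. The low values of this library move with several of the differences above. Within the pair with Y-linked reads, which contains this library, the log2 ratio was above 0 for 27 of 33 members. The share of all genes above 0 in the pair was not computed, so this count cannot be read as particular to the members. Within the other 4 libraries 19 of 32 fitted members were above 0, with a median of 0.028 against 0.017 over all genes. There edgeR called 0 of the members at an adjusted p under 0.05, against 0.693% of all genes. There, 6 members were higher and 4 lower at an unadjusted p under 0.05, where 6.26% of the 16316 genes were higher and 7.28% lower. The 6 were *Itga2*, *Itgb7*, *Tln2* and *Zyx*, with the values above, and *Itga4* (0.65, standard error 0.25) and *Itgb5* (0.37, standard error 0.14). The 4 were *Itga7*, *Itga6* and *Itgav*, with the values above, and *Itga5* (-0.26, standard error 0.11). Of these 10, *Itga5* and *Itga6* had the opposite sign in the pair, with 0.26 and 0.30. For the other 22 members the log2 fold change in the 4 libraries ran from -0.37 for *Itga11* to 0.56 for *Itgb4*. The sign was the same in both sets for 22 of 32 members, a share that was not computed over all genes. It could only be positive for *Itga2*, *Itgb7*, *Tln2*, *Zyx* and *Cd151*, whose groups did not overlap over all 6 libraries.

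**Figure D5:**
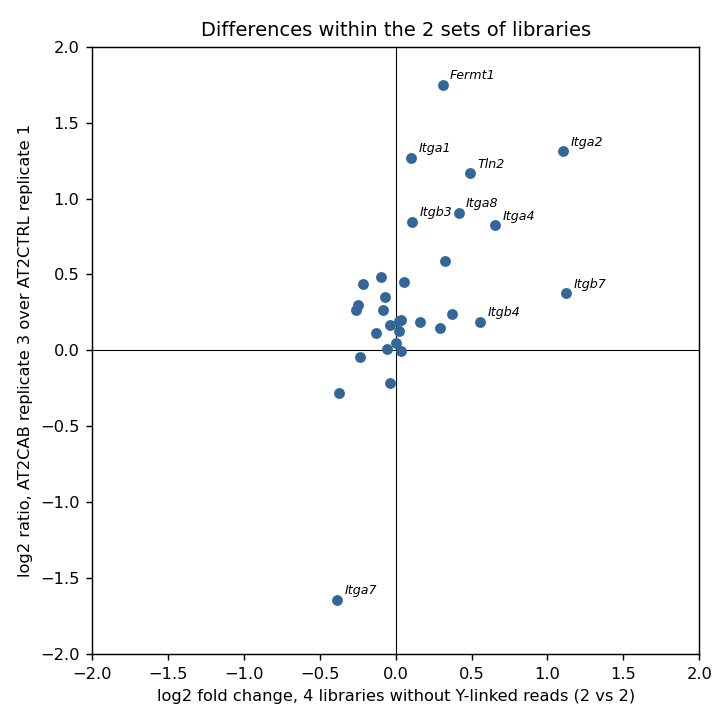
log2 fold change of each of the 32 fitted members in the 4 libraries without Y-linked reads (horizontal axis, 2 against 2) and its log2 ratio within the pair with Y-linked reads (vertical axis, 1 against 1). Itga2 and Tln2 lie to the upper right, Itga7 lies lowest at -1.64 on the vertical axis, and most points lie above the horizontal line.

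The wider adhesion machinery was read from lists of genes outside the members. Of 60 other focal adhesion genes 0 passed in edgeR's test, with 5 higher and 3 lower at an unadjusted p under 0.05 and a median log2 fold change of 0.059. Of 18 tetraspanins and lateral partners 0 passed, with 2 higher and 0 lower at an unadjusted p under 0.05 and a median of 0.032. Of 9 leukocyte and platelet integrin genes 0 passed, with 1 higher and 0 lower at an unadjusted p under 0.05 and a median of 0.52. Of 27 integrin ligands 1 passed as higher, which was *Tgfb1*, with 9 higher and 0 lower at an unadjusted p under 0.05 and a median of 0.51. Over all genes tested, 0.239% passed as higher in edgeR's test. At an unadjusted p under 0.05, 4.62% of all genes were higher and 5.05% lower. *Npnt*, the ligand of alpha-8 beta-1, had 478, 356.5 and 223.5 CPM in AT2CTRL and 269, 304 and 362 CPM in AT2CAB, with overlapping groups. The members and the other focal adhesion genes thus had medians near 0, and the ligands a median above 0 that rests on genes which, except for *Tgfb1*, did not pass. Marker lists of other cell types had like medians, with 0.62 for the 14 mesenchymal, 0.61 for the 12 endothelial and 0.73 for the 6 mesothelial markers, of which 6 of 6 were above 0. The mesothelial markers summed to between 13.0 and 29.3 CPM in AT2CTRL and between 25.1 and 63.2 CPM in AT2CAB. The 9 ligands at an unadjusted p under 0.05 in edgeR's test were *Tgfb1*, *Tgfb2*, *Lama2*, *Lamb3*, *Col4a3*, *Nid1*, *Fn1*, *Tnc* and *Spp1*. Several of these, such as *Fn1*, *Tnc* and *Lama2*, are known products of stromal or vascular cells. *Col4a3* is also on the AT1 list, whose median was 0.33. *Lamb3* had a mean of 290.7 CPM in AT2CTRL and 428.3 CPM in AT2CAB. The part of any cell type in the ligand values was not tested.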

How the data were processed

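The authors deposited raw read counts per gene for 24421 genes in 6 libraries. Per the file headers and methods, paired reads were trimmed (PRINSEQ, Trimmomatic), aligned to mm10 with HISAT2, cleared of duplicates and counted on exons with featureCounts 1.5.3, with no strand or pair option. Between 56.9% and 60.8% of counts from 1 to 20 were even, so a read pair can count as 2. Reads that hit more than 1 gene are not counted under these settings. The exon length of each gene, also deposited, gave RPKM. Depth was 21554249 to 28440227 counts, and a count of 3 corresponds to between 0.0976 and 0.138 CPM (counting error only).

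Groups came from the sample titles. All genes passing edgeR's default filter (minimum count 10) entered edgeR (version 4.0.16, R 4.3.3) with TMM scaling and its quasi-likelihood test ( Benjamini-Hochberg adjustment over all genes). The standard error is the log2 fold change divided by the square root of F. Intervals are pointwise and use that test's degrees of freedom. The methods name DESeq2, run here (1.42.0) as an alternative beside limma-voom (limma 3.58.1). An exact permutation test of 3 against 3 libraries cannot give a p below 0.1. The scripts were tested on simulated data, with planted changes larger than the log2 fold change of any member. That test does not show whether differences as small as those of the members would be found. Replicates of a group differed by more than counting noise. Members and lists were chosen with earlier results of these data known. Genes named are all 33 members, genes of the 4 adhesion and ligand lists that passed, *Tgfb1* and *Npnt*, and markers whose level bears on a member. The 9 ligands at an unadjusted p under 0.05 in edgeR's test are also named. Log2 ratios within the pair use CPM plus 0.1.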

Additional observations from a re-analysis of the deposited data

How the results depend on the processing

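No member passed an adjusted p of 0.05 under any alternative that gave it one. DESeq2 gave none for *Itgb8* and *Fermt1*, and *Itgb8* was not fitted in the 4 libraries without Y-linked reads. Of the 32 members fitted in every alternative, 14 kept their direction in all, and *Itgb8* kept it in those that fitted it. Among the 14, *Itga2*, *Itgb7*, *Tln2*, *Zyx* and *Cd151* had groups that did not overlap, so leaving out libraries could hardly reverse them. The share of all genes that kept their direction was not computed. Of the 113 genes on the 4 further lists 1 passed in the main fit, which called 0.251% of all genes. With DESeq2 4 passed (2.09% of all genes), with library size only 2 (0.359%). In the 4 libraries without Y-linked reads 3 passed (0.693%), and with a covariate for Y-linked reads 4 (2.53%). With each library left out in turn 0 to 1 passed, in fits that called 0.0342% to 0.362% of all genes. The same replicate number did not pair the libraries (r = -0.336, 0.271 and -0.521 for the deviations of libraries that share a number). With the replicate block 0 genes of the 4 lists passed (*Tgfb1* at an edgeR adjusted p of 0.0629), against 0.245% of all genes. The log2 fold changes of *Fermt2* and *Vcl* in that fit were 0.0019 and 0.0064. Apart from fits with a library left out, the other changes of sign concerned members whose main log2 fold change was within 0.1211 of 0. *Itga3*, *Fermt2* and *Parva* were at 0.011, 0.011 and 0.0051 with DESeq2. *Itga3*, *Fermt2* and *Vcl* were at 1e-04, 0.0028 and 0.0088 with limma-voom. With RLE size factors *Itga3*, *Fermt2*, *Parva* and *Vcl* were at 0.023, 0.025, 0.018 and 0.011. With upper-quartile scaling *Itga3*, *Itga5*, *Itga9* and *Itgb1* were at 0.068, 0.0061, 0.037 and 0.0097, and *Fermt2*, *Parva*, *Vcl* and *Ptk2* at 0.074, 0.066, 0.063 and 0.0012. Library size only, which moved the median of all genes to 0.12, put *Itga3*, *Itga5*, *Itga9*, *Itgb1* and *Ilk* at 0.13, 0.059, 0.090, 0.067 and 0.0080, and *Fermt2*, *Parva*, *Vcl* and *Ptk2* at 0.13, 0.12, 0.12 and 0.056. With age as a covariate *Itga3* was at 0.0022, and with the covariate for Y-linked reads *Fermt2* and *Vcl* were at 0.0085 and 0.0074. In the 4 libraries without Y-linked reads *Itga3*, *Parva*, *Actn4* and *Flna* were at 0.033, 0.0024, -0.070 and -0.099. The cause of these changes was not tested.

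With each library left out in turn, the log2 fold change ran from -0.028 to 0.70 for *Itga1*, from -0.13 to 0.16 for *Itga3*, from -0.27 to 0.052 for *Itga5*, from -0.35 to 0.020 for *Itga6* and from -0.23 to 0.12 for *Itga9*. The range was -0.22 to 0.30 for *Itga10*, -0.79 to 0.098 for *Itga11*, -0.17 to 0.042 for *Itgb1* and -0.17 to 1.07 for *Itgb4*. Among the linkers it was -0.060 to 0.29 for *Tln1*, -0.12 to 0.094 for *Fermt2*, -0.097 to 0.090 for *Parva*, -0.18 to 0.087 for *Vcl*, -0.13 to 0.23 for *Actn1*, -0.043 to 0.15 for *Actn4* and -0.17 to 0.15 for *Flna*. Chains under 1 RPKM rest on few counts, and their intervals are wide.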
